A study of Nicotiana tabacum with 12 samples.

Results

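Protein kinases attach phosphate to other proteins and protein phosphatases take it off, and receptor-like kinases do so at the cell surface, where their outer part reads a signal. Ubiquitin is a small protein that is handed from an E2 conjugating enzyme to a target by an E3 ligase, and a chain of it usually sends the target to the proteasome. F-box proteins are the exchangeable part of the SCF type of E3 ligase that picks the target, and in plants they carry much of hormone signalling, including that of ethylene, auxin, jasmonate and gibberellin. The genes described here are the 43 tobacco genes, of 45034 in the deposited tables, that the authors' deposited tables list as higher after induction and describe as a protein kinase, a receptor-like protein or receptor kinase, a protein phosphatase, or a ubiquitin, U-box or F-box protein. A further 4 genes that match these words, the pair of At2g16365-like F-box genes, XERICO and protein phosphatase 2C 24, were left out.

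RNA came from shoots (aerial parts) of tobacco seedlings (Nicotiana tabacum cv Petit Havana SR1) grown from T2 seed after stable transformation. They carry AmMIXTA, which in snapdragon encodes a MYB factor that shapes conical petal cells, under β-estradiol control, and the promoter that drives the inducible system is not named in the labels. Control seedlings got no estradiol and induced seedlings did. Each was collected at 4 h, at 7 days of age, and at 48 h, at 9 days, which gives 4 groups of 3 libraries with 15 seedlings per collection. The labels do not say how many transgenic lines the seed came from, and estradiol on seedlings without the transgene was not analysed here, so a response to estradiol and one to AmMIXTA cannot be told apart. The samples are whole shoots, so a change in the share of a cell type and a change in RNA per cell cannot be told apart either.

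The deposited values, here called normalised values, are reads scaled per library. The tables held 22443424 to 44946993 reads per library, except control replicate 1 with 1609263 at 4 h and 1274469 at 48 h. Of these, 0.0767% to 69.3% lay in the 4 genes at 4 h and 14 at 48 h left out for an inflated entry in any library. At 4 h that share was 43.0% and 40.1% in control replicates 1 and 2, but 0.0767% to 0.105% in control replicate 3 and the induced libraries. At 48 h it was 2.70% in control replicate 1 and 24.2% to 69.3% in the other libraries. What remained was 12457701 to 30103266 reads, but 917871 and 1240033 in control replicate 1. Those libraries gave the 17 genes listed at 4 h only 1 to 15 reads each at 4 h (8 of them at most 3), and the 26 listed at 48 h only 1 to 40 at 48 h (12 at most 3). For 48 h, the reads of control replicates 2 and 3 were the same in 42659 of 42659 genes, so the pair was counted as 1 sample, called control replicate 2, which leaves n = 2 for that control. Nothing says that replicates are separate cultures, so the spread may be technical. Of names that mark green shoot tissue, the plastid genes psbA and rbcL were found, with summed values of 1114 to 1535 in controls and 608 to 1035 in induced libraries at 4 h, and 652 to 775 against 669 to 973 at 48 h. The 5 matched root and alkaloid genes include putrescine N-methyltransferases of nicotine synthesis. At 4 h they summed to 22.4 to 26.5 in controls and 31.8 to 44.8 in induced libraries. By limma 1 of the 5 rose there, and 4 were higher at an unadjusted p under 0.05. However, 3 of the 5, the putrescine N-methyltransferases, are in the authors' deposited tables as higher at 4 h. The 1 that rose is among them, so its rise repeats that choice. At 48 h the sums were 12.03 to 18.6 in controls and 11.5 to 14.5 in induced libraries. There 0 of 5 rose, with 0 at an unadjusted p under 0.05 and 2 of the 5 past the filter on low values. No gene name matched the list of trichome markers. The part of these shifts in the values below was not tested.

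The members were chosen by their values. To be listed in the authors' deposited tables, the induced mean must be at least 1.5 times that of controls with an unadjusted p under 0.05, at 4 h or at 48 h. By that choice 17 members were listed at 4 h and 26 at 48 h, and 0 at both. At the listed time the difference is therefore a description without a test, while the time a gene was not listed for rests on other libraries and was tested with limma. Adjusted p-values below are from that test. Just inside the fold limit in the authors' deposited table stood LOC107785221 at 4 h (1.501) and LOC107818340 at 48 h (1.501). Just outside stood LOC107786810 at 4 h (1.495) and LOC107787629 at 48 h (1.499), for which no description was at hand, so that kinase and ubiquitin genes short of the limit could not be counted. The test behind the authors' deposited table counted the repeated 48 h library as 2 samples. With it counted once and the p recomputed, 7 of the 26 members listed at 48 h and 17 of the 17 listed at 4 h still met both limits, and 23 of the 26 still met the fold limit.

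By role the members were 4 receptor kinases (3 listed at 4 h, 1 at 48 h), 8 other kinases (4 and 4), 4 phosphatases (2 and 2), 3 E2 enzymes and deubiquitinases (1 and 2), 8 E3 ligases (3 and 5) and 16 F-box proteins (4 and 12). Several are copies under the same name, as is usual in tobacco, whose genome joins those of different parent species. The split of reads between near-identical copies is uncertain, so sums over copies are given too. In RefSeq's gene table for ASM71507v2, used for names and gene order alone, 39 of the 43 members were found, no pair of them nearer than 31 genes apart, and 1 (At5g07610-like F-box, LOC107806681) was annotated as a pseudogene.

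The receptor kinases listed at 4 h included both copies of BAM1, a leucine-rich repeat kinase that in thale cress perceives CLE peptides in meristems and anthers. BAM1 copy LOC107770387 had normalised values of 9.06, 11.8 and 10.1 in control replicates 1 to 3 and 18.1, 16.3 and 15.0 in induced replicates at 4 h. All induced libraries stood above all controls there, with a ratio of means of 1.60. At 48 h, the time it was not listed for, it had 2.80 and 2.69 in controls and 2.00, 2.07 and 1.98 in induced libraries, now all below the controls (log2 fold change -0.37, SE 0.17, adjusted p = 0.852). The second copy, LOC107760335, gave 3.48, 3.35 and 4.26 against 6.21, 6.39 and 5.01 at 4 h (ratio 1.59). Its 48 h values of 1.68 and 1.27 in controls and 0.876, 1.44 and 1.04 in induced libraries overlapped. Summed over both copies, BAM1 stood at 14.0 ± 1.33 in controls and 22.3 ± 2.17 in induced libraries at 4 h (SD, n = 3 per group) and at 4.22 ± 0.365 (n = 2) and 3.14 ± 0.332 (n = 3) at 48 h.

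PERK9 (LOC107801784), of the proline-rich receptor-like kinases thought to sense the cell wall, was near the limit of detection. It had 0.697, 0.387 and 0.385 in controls and 0.812, 1.09 and 0.840 in induced libraries at 4 h (ratio 1.87), where 0.697 was 1 read of the first control. At 48 h its values of 0.559 and 0.370 against 0.595, 0.450 and 0.717 overlapped, and it missed the filter on low values at both times.

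HAIKU2 (LOC107786953), a leucine-rich repeat receptor kinase that in thale cress controls endosperm growth and seed size, was the receptor kinase listed at 48 h. At 48 h it had 1.40 and 0.792 in controls and 3.13, 1.60 and 3.11 in induced libraries, a ratio of 2.39. The groups did not overlap, but induced replicate 2 stood close to control replicate 1. That control held 5 reads of HAIKU2, and without it the ratio was 3.30. With the repeated control library counted once, HAIKU2 still met the authors' fold limit but not their p limit. At 4 h it had 7.66, 7.09 and 6.83 in controls and 6.28, 7.35 and 10.01 in induced libraries, which overlapped (log2 fold change 0.10, SE 0.15, adjusted p = 0.996).

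**Figure D1:**
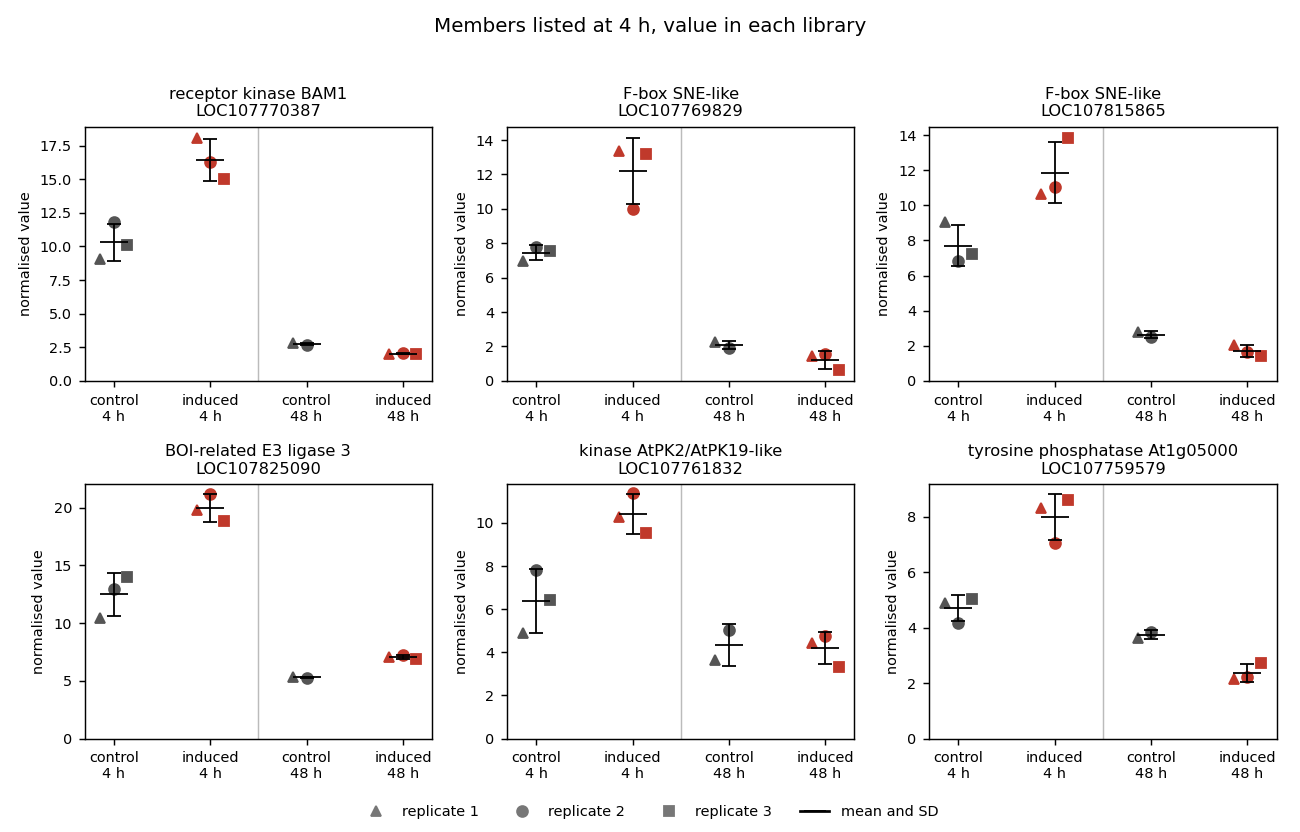
Normalised value of 6 members listed at 4 h in each library (y axis, starting at 0), by group. Symbols mark the replicate, bars the mean and SD, and the tables of the 2 times were scaled separately, so heights left and right of the grey line are not comparable. Induced libraries stand above controls at 4 h in each panel, and at 48 h BAM1, both SNE-like genes and the tyrosine phosphatase stand below them while BOI-related E3 ligase 3 stands above (7.04 against 5.30 on average).

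Among the other kinases, AtPK2/AtPK19-like (LOC107761832), of the S6 kinase type that acts below the nutrient sensor TOR, had 4.88, 7.83 and 6.45 in controls and 10.3, 11.4 and 9.53 in induced libraries at 4 h, with a ratio of 1.63. At 48 h its values of 3.64 and 5.01 against 4.44, 4.77 and 3.34 overlapped (log2 fold change -0.04, SE 0.18, adjusted p = 0.992). The At5g01020-like kinase (LOC107807984), a cytoplasmic kinase related to receptor kinases, had the highest ratio of means at 4 h among the members listed there. It rested on few reads, with 0.697 (1 read), 0.516 and 0.308 in controls and 1.22, 1.495 and 0.870 in induced libraries (ratio 2.36), and it was not in the 48 h table. WAG1-like (LOC107806798), of the AGC kinases that phosphorylate PIN auxin carriers in thale cress, had a ratio of 2.01 at 4 h and 1.12 at 48 h (log2 fold change 0.13, adjusted p = 0.973). The At1g54610-like kinase (LOC107785221) had 1.39, 1.61 and 1.26 against 1.98, 1.99 and 2.43 at 4 h, and 1.40 and 1.11 against 0.845, 0.608 and 0.808 at 48 h. Its groups did not overlap at either time, in opposite directions.

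The kinases listed at 48 h were calcium-dependent protein kinase 13-like, HT1-like, CBL-interacting kinase 11-like and Cx32. Calcium-dependent protein kinase 13-like (LOC107793458), which reads calcium signals directly, had 1.96 and 1.87 in controls and 3.94, 3.40 and 2.45 in induced libraries at 48 h (ratio 1.70). Its 4 h values were 3.48, 4.58 and 4.93 against 4.80, 4.96 and 5.19, with overlap (log2 fold change 0.19, SE 0.15, adjusted p = 0.976). HT1-like (LOC107764913), named for a kinase that sets the response of stomata to CO2 in thale cress, had a ratio of 1.97 at 48 h and 0.867 at 4 h (log2 fold change -0.17, adjusted p = 0.996). CBL-interacting kinase 11-like (LOC107762191) had a ratio of 1.76 at 48 h and was not in the 4 h table. Cx32 (LOC107776424) had ratios of 1.57 at 48 h and 1.00 at 4 h.

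Protein phosphatases were few. The At1g05000-like tyrosine phosphatase (LOC107759579) had 4.88, 4.16 and 5.03 in controls and 8.31, 7.05 and 8.61 in induced libraries at 4 h, a ratio of 1.70. At 48 h the order was the opposite, with 3.64 and 3.85 in controls and 2.13, 2.21 and 2.73 in induced libraries. That difference came to -0.58 on the log2 scale (SE 0.17), with the lowest adjusted p of the members tested at 48 h, 0.450 by limma (0.00369 unadjusted). Protein phosphatase 2C 39 (LOC107831897), of the family whose best known members switch off abscisic acid signalling, had 1.96 and 3.14 in controls and 4.44, 4.37 and 3.87 in induced libraries at 48 h (ratio 1.66). Its log2 fold change there was 0.66 with all libraries and 0.37 without control replicate 1. At 4 h its values of 4.18, 3.58 and 4.67 against 3.44, 4.59 and 3.81 overlapped (log2 fold change -0.06, SE 0.16, adjusted p = 0.997). The B' theta-like regulatory subunit of protein phosphatase 2A (LOC107778430), which directs that enzyme to its targets, had a ratio of 1.51 at 4 h and 0.721 at 48 h (log2 fold change -0.31, adjusted p = 0.953). Protein phosphatase 2C 55 (LOC107763444) had a ratio of 1.52 at 48 h and 1.16 at 4 h (log2 fold change 0.20, adjusted p = 0.996).

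Of the enzymes that load or remove ubiquitin, E2 4-like (LOC107761315), a conjugating enzyme, had 1.12 and 0.950 in controls and 1.53, 1.69 and 1.56 in induced libraries at 48 h (ratio 1.54). Its 4 h values were 2.09, 3.45 and 3.16 against 2.70, 2.54 and 2.76, with the induced libraries inside the range of the controls (log2 fold change -0.08, SE 0.18, adjusted p = 0.997). AMSH-like ubiquitin thioesterase 1 (LOC107760387), of a family that removes ubiquitin on endosomes, had 3.92 and 2.35 in controls and 4.13, 4.41 and 4.59 in induced libraries at 48 h. Its log2 fold change was 0.46 with all libraries and 0.77 without control replicate 1, which stood close to the induced libraries. Its 4 h values were 8.36, 8.48 and 7.47 against 8.12, 6.54 and 8.28, with overlap (log2 fold change -0.08, SE 0.13, adjusted p = 0.996). Ubiquitin carboxyl-terminal hydrolase 14-like (LOC107788509), which takes apart free ubiquitin chains, had a ratio of 1.51 at 4 h and 1.16 at 48 h, where it missed the filter on low values.

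The E3 ligases listed at 4 h were 2 BOI-related ligases and 1 of 2 At3g02290-like genes. BOI ligases are RING proteins that in thale cress limit cell death and bind the DELLA repressors of gibberellin signalling. BOI-related E3 ligase 3 (LOC107825090) had 10.5, 13.0 and 14.0 in controls and 19.8, 21.2 and 18.8 in induced libraries at 4 h (ratio 1.60). It stood higher in each induced library at 48 h too, with 5.31 and 5.28 in controls against 7.04, 7.20 and 6.89. No other member listed at 4 h was higher by more at 48 h than this gene, at 0.38 on the log2 scale (SE 0.14, adjusted p = 0.634, 0.0117 unadjusted). BOI-related E3 ligase 1-like (LOC107760232) had ratios of 1.59 at 4 h and 1.19 at 48 h, where it missed the filter on low values. Summed, the BOI-related copies stood at 13.7 ± 1.69 in controls and 21.9 ± 1.31 in induced libraries at 4 h (SD, n = 3 per group) and at 6.09 ± 0.0959 (n = 2) and 7.99 ± 0.218 (n = 3) at 48 h.

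The At3g02290-like ligases were listed at different times. LOC107782595, with values below 1 in every library, had 0.697 (1 read), 0.451 and 0.360 in controls and 0.812, 0.982 and 0.989 in induced libraries at 4 h. At 48 h it had 0.559 and 0.686 against 0.219, 0.315 and 0.427, the opposite order. LOC107766716 was listed at 48 h, with 1.40 and 1.06 in controls and 2.32, 2.57 and 1.68 in induced libraries (ratio 1.78). At 4 h its values of 4.18, 4.74 and 3.88 against 4.04, 3.14 and 3.39 overlapped (log2 fold change -0.25, SE 0.16, adjusted p = 0.957). Their sum was 4.77 ± 0.484 in controls and 4.45 ± 0.369 in induced libraries at 4 h (SD, n = 3 per group), and 1.85 ± 0.153 (n = 2) and 2.51 ± 0.389 (n = 3) at 48 h.

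Other E3 ligases were listed at 48 h. RNF181-like (LOC107767786) had 1.68 and 2.59 in controls and 3.25, 3.83 and 5.15 in induced libraries at 48 h (ratio 1.91). At 4 h it had 3.48, 3.48 and 4.70 against 3.15, 3.50 and 2.34, so that only induced replicate 2 reached into the control range (log2 fold change -0.33, SE 0.18, adjusted p = 0.916). RNF5-like (LOC107811368) had a ratio of 1.92 at 48 h on very few reads, and 3.50 without control replicate 1. Its values were 0.280 (1 read) and 0.106 in controls and 0.375, 0.428 and 0.305 in induced libraries. At 4 h it was lower in induced libraries without overlap, with 0.697 (1 read), 0.548 and 0.360 in controls against 0.0956, 0.235 and 0.270, and it missed the filter on low values at both times. CHIP-like (LOC107804476), a U-box ligase that works with chaperones, had ratios of 1.71 at 48 h and 1.24 at 4 h, and U-box protein 4-like (LOC107802448) 1.45 and 1.08.

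EIN3-binding F-box genes were higher in every induced library at 48 h. EBF proteins direct the ethylene transcription factor EIN3 to the proteasome and so limit the ethylene response, and their own genes are known targets of EIN3 in thale cress. Of the 12 F-box members listed at 48 h, 4 carry this name. LOC107780712 had 6.71 and 6.47 in controls and 16.5, 10.7 and 21.8 in induced libraries at 48 h (ratio 2.47). LOC107806314 had 4.75 and 4.38 against 10.4, 7.63 and 13.4 (ratio 2.29). LOC107770491 had 11.2 and 12.9 against 26.4, 16.5 and 29.1 (ratio 1.99). In each of these copies the controls lay close together, and induced replicate 2 was the lowest and induced replicate 3 the highest of the induced libraries. The EIN3-binding F-box 2-like copy (LOC107795861) kept that order, with 5.03 and 4.06 against 10.7, 7.74 and 14.8 (ratio 2.44). Summed over the 4 copies, the 48 h values were 27.7 and 27.8 in controls and 63.9, 42.6 and 79.1 in induced replicates 1 to 3. With the repeated control library counted once, all 4 copies still met the authors' fold limit, but none of the 4 met their p limit.

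At 4 h, the time they were not listed for, the EIN3-binding genes differed little between groups. LOC107806314 had 18.8, 15.1 and 18.9 in controls and 20.4, 21.4 and 26.2 in induced libraries, the 1 copy whose groups did not overlap (log2 fold change 0.36, SE 0.12, adjusted p = 0.510, 0.00762 unadjusted). LOC107780712 had 18.1, 15.3 and 20.5 against 20.3, 19.0 and 24.0 (log2 fold change 0.23, SE 0.12, adjusted p = 0.919). LOC107770491 had 33.4, 29.6 and 42.6 against 33.9, 35.9 and 41.6 (log2 fold change 0.09, SE 0.13, adjusted p = 0.996). LOC107795861 had 16.0, 20.9 and 19.9 against 17.6, 21.2 and 22.4 (log2 fold change 0.10, SE 0.12, adjusted p = 0.996). None of the 4 passed the threshold at 4 h. Their sum was 86.4, 80.9 and 102 in controls and 92.2, 97.4 and 114 in induced libraries, with overlap.

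**Figure D2:**
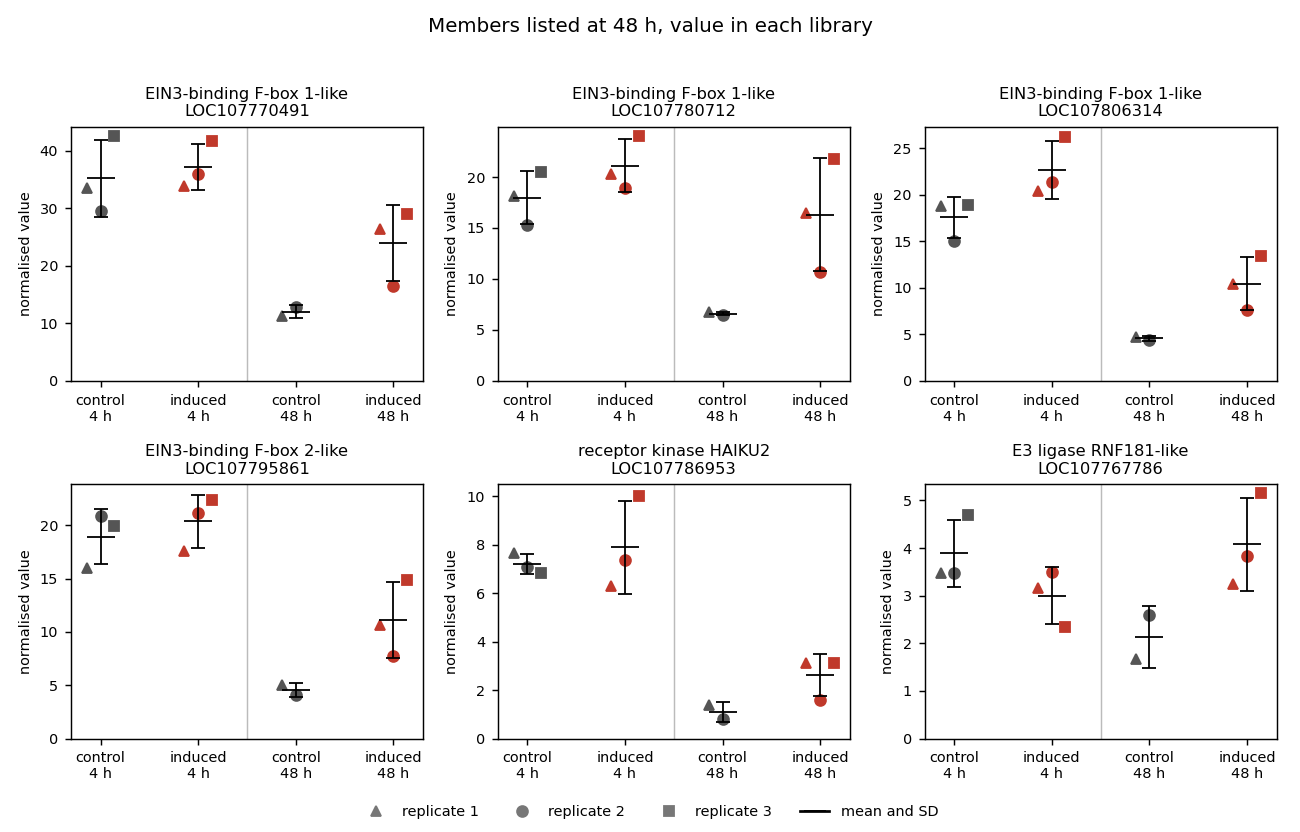
Normalised value of 6 members listed at 48 h in each library (y axis, starting at 0), by group. Symbols mark the replicate, bars the mean and SD, and the 2 times were scaled separately, so heights left and right of the grey line are not comparable. At 48 h the EIN3-binding F-box genes have controls close together and induced libraries spread above them (16.5 to 29.1 in LOC107770491), while at 4 h 5 of the 6 panels overlap.

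SNE-like F-box genes were listed at 4 h. SNE is a close relative of SLY1, the F-box protein that marks DELLA repressors for breakdown in gibberellin signalling of thale cress. LOC107769829 had 6.97, 7.80 and 7.58 in controls and 13.4, 9.97 and 13.2 in induced libraries at 4 h (ratio 1.64). LOC107815865 had 9.06, 6.83 and 7.24 against 10.7, 11.1 and 13.9 (ratio 1.54). Both were lower in induced libraries at 48 h without overlap. LOC107769829 then had 2.24 and 1.93 in controls against 1.44, 1.58 and 0.640, a log2 difference of -0.63 (SE 0.25, adjusted p = 0.719, 0.0196 unadjusted), and of -0.36 without induced replicate 3. LOC107815865 had 2.80 and 2.48 against 2.07, 1.62 and 1.43 (log2 fold change -0.52, SE 0.19, adjusted p = 0.680, 0.0150 unadjusted). Their sum was 15.2 ± 0.757 in controls and 24.0 ± 3.00 in induced libraries at 4 h (SD, n = 3 per group) and 4.72 ± 0.443 (n = 2) and 2.92 ± 0.753 (n = 3) at 48 h.

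The remaining F-box members had no role known well enough to state, apart from SKP2A-like and CPR30-like. SKP2A-like (LOC107775581), named for a cell cycle regulator, had a ratio of 1.55 at 48 h and 0.984 at 4 h. CPR30-like (LOC107799830), named for a repressor of defence in thale cress, had 1.83 and 1.05. The kelch-repeat F-box At1g23390-like (LOC107781622) had 3.08 and 3.33 in controls and 5.01, 5.06 and 4.70 in induced libraries at 48 h (ratio 1.54). At 4 h it had 2.79, 2.71 and 4.11 against 2.63, 1.75 and 2.70, lower without overlap by a narrow gap (log2 fold change -0.37, SE 0.19, adjusted p = 0.906). At5g03970-like (LOC107795018) had 0.559 and 0.475 against 0.814, 0.810 and 0.930 at 48 h, the time it was listed for. It missed the filter on low values there, with 2 reads in control replicate 1. At 4 h it had 1.39, 1.35 and 0.514 against 1.53, 1.47 and 1.65, higher without overlap but not called (log2 fold change 0.42, SE 0.25, adjusted p = 0.930). The 4 h difference was 0.13 without control replicate 3, the lowest control. At2g26850-like (LOC107804531), listed at 4 h, had 3.48, 3.74 and 4.55 against 6.02, 6.17 and 5.58 there and 3.64 and 4.33 against 4.76, 5.42 and 4.15 at 48 h (log2 fold change 0.23, SE 0.16, adjusted p = 0.943). The others had ratios at the listed time of 1.89 for At3g23880-like (LOC107802826) at 4 h, and at 48 h of 1.47 for At5g07610-like (LOC107806681), 1.52 for At5g03100-like (LOC107825551), 1.57 for At5g42350-like (LOC107818340) and 2.07 for PP2-B12 (LOC107785604). The PP2-B12 ratio was 3.39 without control replicate 1, which held 3 reads of it.

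Across the members, limma called no gene at the time it was not listed for, at an adjusted p under 0.05. At 4 h, 25 of the 26 members listed at 48 h were in the table, 23 passed the filter on low values, and 0 were called, where 0.352% of the 37238 genes tested were called (0.0967% higher, 0.255% lower). At an unadjusted p under 0.05, 1 was higher and 0 lower (2.93% and 2.81% of all genes), and edgeR and DESeq2 called 0. Groups did not overlap in 2 higher (4.83% of all genes in the table) and 3 lower (5.53%) of the 25. Their median log2 fold change was 0.02, with 14 above and 11 below 0, beside 0.00 over all 44399 genes and -0.05 over the 561 other genes listed at 48 h.

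At 48 h, 16 of the 17 members listed at 4 h were in the table, 10 passed the filter and 0 were called (0.0127% of the 31565 genes tested, 0.0095% higher and 0.00317% lower). At an unadjusted p under 0.05, 1 was higher and 3 lower (3.45% and 2.45% of all genes), and edgeR and DESeq2 called 0. With 2 controls, a gene could reach a value of 1 in 3 libraries through the induced libraries alone, but not through the controls alone. The filter therefore kept fewer genes that were lower, among members and all genes alike. LOC107785221 missed it, with 1.40 and 1.11 in controls and 0.845, 0.608 and 0.808 in induced libraries. Groups did not overlap in 3 higher (10.7% of all genes) and 6 lower (11.1%) of the 16, which is 37.5% lower, beside 17.6% of the 136 other genes listed at 4 h. The median log2 fold change was -0.17, beside 0.00 over all 42645 genes and -0.08 over those other genes. It was -0.02 without control replicate 2, -0.09 without induced replicate 3 and -0.09 with a pseudocount of 2. Pairing libraries by number at 4 h raised the genes called over the whole table from 131 to 376, with 0 of the members listed at 48 h among them.

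**Figure D3:**
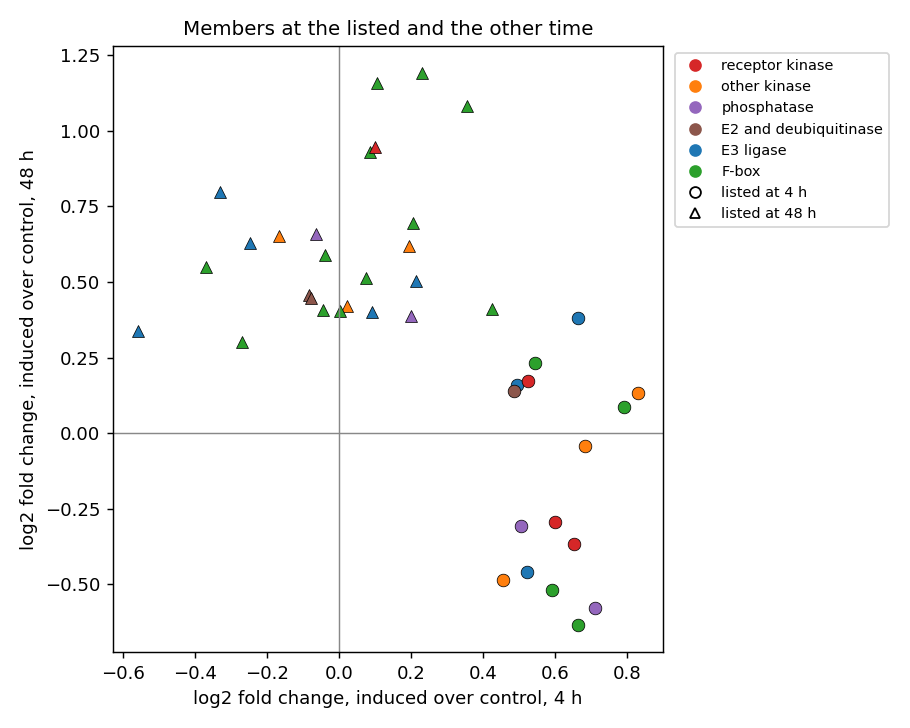
Log2 fold change of induced over control at 4 h (x axis) and at 48 h (y axis) for the 41 members in both tables, coloured by role. Circles are members listed at 4 h and triangles those listed at 48 h, so the distance of circles to the right and of triangles upwards follows from the choice of members; on the other axis circles range from -0.63 to 0.38 and triangles from -0.56 to 0.42.

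Levels over time in control seedlings were read from the recovered reads, scaled together to CPM (reads relative to the total of a library) for the 41 members in both tables. These values share the control libraries with the comparisons that chose the members, and age and collection cannot be told apart, so they are given as a description. Of the 25 members listed at 48 h, 11 were lower in control libraries at 48 h than at 4 h without overlap (20.7% of all genes) and 2 higher (18.3%). The same held for 244 of the 561 other genes listed at 48 h, 43.5% against 44.0% of the members. Among the 16 listed at 4 h, 6 were lower (37.5%) and 4 higher (25.0%), beside 10.3% lower and 35.3% higher of the 136 other genes listed at 4 h. These shares were not tested against each other.

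HAIKU2 (LOC107786953) had the largest such drop, from a mean of 10.9 CPM in control at 4 h to 3.10 at 48 h, where induced seedlings had 7.41. Its 48 h controls were 2.24 and 3.97 CPM, the latter from 5 reads in control replicate 1. The EIN3-binding F-box genes summed to 121 to 153 CPM in controls and 139 to 172 in induced libraries at 4 h. At 48 h controls had 78.5 and 78.6 CPM, while induced libraries had 121 to 224, which spans the levels of both groups at 4 h. HT1-like (LOC107764913) followed the same course, with means of 4.47 and 3.85 CPM in control and induced seedlings at 4 h and 2.09 and 4.12 at 48 h. The 48 h controls of HT1-like were 1.79 and 2.38 CPM, the latter from 3 reads in control replicate 1. BAM1 and the SNE-like genes took another course. Summed BAM1 stood at 21.2 and 33.6 CPM in control and induced seedlings at 4 h and at 11.9 and 8.90 at 48 h, and summed SNE-like genes at 22.9 and 36.2 at 4 h and 13.4 and 8.30 at 48 h. SKP2A-like (LOC107775581) and At1g23390-like (LOC107781622) were the 2 members listed at 48 h that were higher in older controls, at 18.4 against 9.80 and 9.07 against 4.84 CPM.

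**Figure D4:**
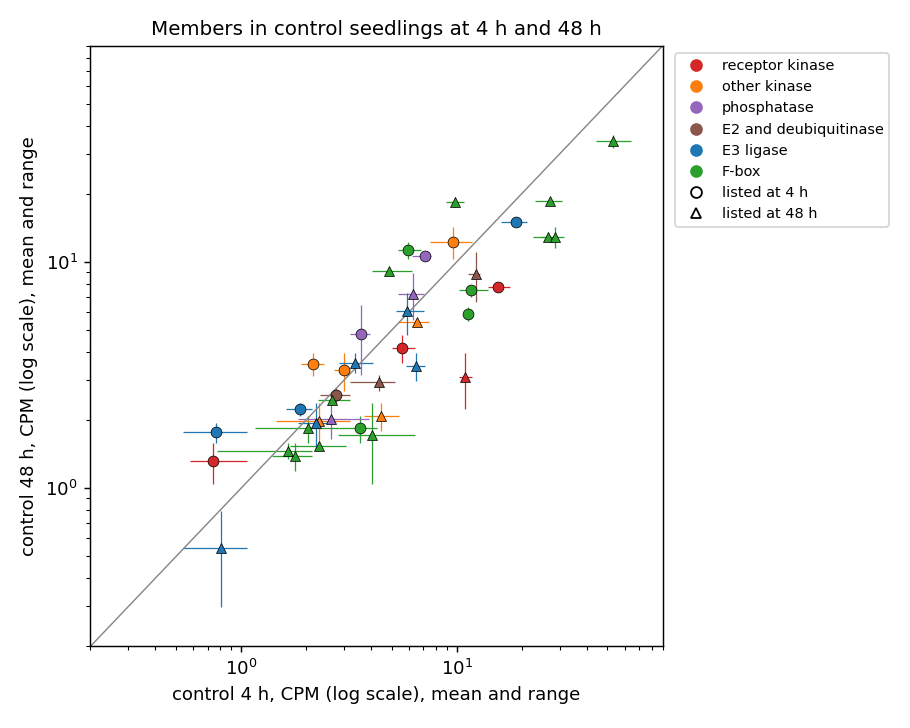
CPM in control seedlings at 4 h (x axis) and 48 h (y axis), both on log scales, for the 41 members in both tables. Points are means, lines the range over libraries and colours the role, with circles listed at 4 h and triangles at 48 h. HAIKU2 (red triangle, 10.9 and 3.10 CPM) lies farthest below the line of equal level.

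Genes outside the members with related words in their names could be counted only where a name was at hand. These names came nearly always from the same authors' deposited tables, so the directions are not independent evidence. The word kinase also matched phosphatidylinositol 4-kinase beta 1-like and diacylglycerol kinase 1-like, which are named for lipids and not for proteins. Of 6 other genes for kinases, a kinase regulator and a phosphatase, 1 rose at 4 h by limma, membrane-associated kinase regulator 6 (LOC107764853, log2 fold change 0.64). It was listed at 4 h, so that call repeats the choice and its p-value is left out. At an unadjusted p under 0.05, 1 of the 6 was lower at 4 h. This was histidine kinase 3-like (LOC107821378, log2 fold change -0.42, adjusted p = 0.158), which was listed at 48 h. At 48 h 0 passed, with 4 higher and 1 lower at an unadjusted p under 0.05. The 4 higher were all listed at 48 h, and the 1 lower was membrane-associated kinase regulator 6. Of 5 other ubiquitin genes, 1 rose at 4 h, the At2g16365-like F-box gene LOC107808647 (log2 fold change 0.64), which was likewise listed at 4 h. At an unadjusted p under 0.05, 2 of the 5 were higher at 4 h, both listed there, and 1 was lower. The lower gene was XERICO (LOC107822042, log2 fold change -0.49, adjusted p = 0.707), which was listed at 48 h. At 48 h 0 of the 5 passed, with 3 higher at an unadjusted p under 0.05, all 3 listed at 48 h. SKP1-like protein 12 (LOC107823572), the type of SCF subunit that holds F-box proteins, had log2 fold changes of -0.14 at 4 h and 0.58 at 48 h. The lists of F-box partners, abscisic acid partners and cell cycle genes had 2 named genes each and 0 called at either time.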

How the data were processed

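RNA of 12 libraries in 4 groups of 3, taken from the sample titles, was compared between induced and control seedlings at each time. The deposited per-library values are a signal: reads over a scaling factor per library, since 100% of entries came out as whole multiples of 1 step within a tolerance of 0.01. The deposited ratio (fold) and p-value columns are the authors' own, and the submitters' processing notes name edgeR. Aligner, counter, strand setting and build: not given in the sources used here. The 12 per-library columns of the authors' deposited tables of higher genes were not used, since their headers name 4 h samples at both times.

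Genes with an entry above 5000 and over 20 times their median (4 at 4 h, 14 at 48 h) were left out. The test was limma 3.58.1 (trend, robust, R 4.3.3) on log2(value + 0.5), on genes that reached 1 in 3 or more libraries, fitted to the whole table of each time, two-sided, Benjamini-Hochberg adjusted and called at 0.05. On that scale the change of low genes is understated. Fold changes of members that missed the filter came from a fit without it. Alternatives were edgeR 4.0.16 and DESeq2 1.42.0 on recovered reads, other pseudocounts, no filter, TMM scaling, both times in 1 fit, replicate blocks and leaving out each library. CPM used TMM scaling. One read was worth 0.697 and 0.280 in control replicate 1 and 0.0152 to 0.0322 elsewhere, which limits the precision. Of entries of 1 to 20 reads, 46.0% and 49.4% were even in control replicate 1 and 68.4% to 74.7% elsewhere. Outside control replicate 1 reads thus often came in pairs, so precision there is coarser than 1 read. The edgeR and DESeq2 fits took them as single reads, and the cause was not tested.

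Libraries sharing a library number, from the sample descriptions, deviated together at 4 h (correlations of 0.16, 0.22 and 0.18 over 19703 genes). The main fit did not use these pairs, and the SEs and p-values given for single members come from it. Pairs by library number entered only as replicate blocks among the alternatives. In limma, those blocks lowered the adjusted p-value for LOC107806314 from 0.510 to 0.123. At 48 h, 2 controls deviate as mirror images, so the numbers could not be shown to pair. The members and lists were chosen with earlier results of these data known. Values in every library were given for members called at the time not listed, the 3 largest changes each way there, the 2 highest levels per role and the largest fold per role, and for some copies and opposite pairs chosen after their values were seen. No sequence is shown.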

Additional observations from a re-analysis of the deposited data

Results flagged for a closer look

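In 9 members the induced libraries all stood on one side of the controls at 4 h and all on the other side at 48 h, beside 2 controls at 48 h. These were 6 of 16 listed at 4 h (37.5%) and 3 of 25 listed at 48 h (12%), beside 17.6% of the 136 and 8.2% of the 561 other genes listed at those times. Over all 42010 genes in both tables, most of them not chosen for a difference, the share was 1.16%. All members stood higher without overlap at the listed time, so the closer share is that of all genes lower at the other time. That share was 11.1% at 48 h and 5.53% at 4 h. These 9 members are the ones counted above as lower without overlap at the time not listed. The difference between the times was not tested, since the comparison at the listed time chose each gene. The log2 fold change at 48 h minus that at 4 h was -1.30 for the SNE-like F-box gene LOC107769829 and -1.11 for its copy LOC107815865, -1.29 for the At1g05000-like tyrosine phosphatase (LOC107759579), -1.02 for BAM1 (LOC107770387), -0.98 for the At3g02290-like E3 ligase LOC107782595 and -0.94 for the At1g54610-like kinase (LOC107785221), all listed at 4 h. It was 0.92 for At1g23390-like (LOC107781622), 0.90 for RNF5-like (LOC107811368) and 0.57 for At5g07610-like (LOC107806681), all listed at 48 h. Of these 9, RNF5-like, At5g07610-like and LOC107782595 missed the filter on low values at both times, and At1g54610-like at 48 h. Groups of 3 libraries are too small for a test of single outlying samples.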

How the results depend on the processing

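The count of members called at the time not listed stayed at 0 in all settings run but 1, a replicate block by library number at 48 h with the repeated library as 2, added after the data were seen, which called 1 (LOC107769829, -0.79, adjusted p = 0.0342, against -0.63 and 0.719). The same library under its other number gave -0.74 and 0.104, and its deviations correlated with those of the induced library of that number at 0.11 as 2 and 0.47 under the other number. Over all genes, 131 were called at 4 h, and 52 with both times in 1 fit, 242 and 376 with a replicate block by title and by library number, and 85 to 156 when leaving out 1 library (85 without control replicate 1). At 48 h 4 were called, and 10 with a pseudocount of 2, 10 with both times in 1 fit, 2 by edgeR, 13 by DESeq2, 148 and 429 with a replicate block by title and by library number, 1 and 646 with the same blocks and the repeated library under its other number, and 3 to 61 when leaving out 1 library (46 without induced replicate 2, 61 without induced replicate 3). The cause was not tested. The median of members listed at 4 h was -0.195 to -0.016 at 48 h when leaving out 1 library, the latter without control replicate 2. For named members 308 single values were recomputed. Without the filter and, at 4 h, with replicate blocks, the fold change stays the same by design, so its direction could not change there. Of the 308, 298 kept direction and side, 1 passed (above) and 9 changed sign, all from sizes of 0.10 or less. These were LOC107761832 at 48 h (0.10 with the block by title number, -0.25 to 0.17 when leaving out 1 library) and, at 4 h when leaving out 1 library, LOC107760387 (-0.14 to 0.0179), LOC107761315 (-0.26 to 0.04), LOC107770491 (-0.0287 to 0.23), LOC107786953 (-0.0754 to 0.24) and LOC107831897 (-0.17 to 0.019). Leaving out 1 library moved 14 of 20 named values by over 1.5 times, among them LOC107767786 (-0.33 to -0.19) and LOC107781622 (-0.37 to -0.20). The low reads of control replicate 1 limit all low genes.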
